A study of Mus musculus with 12 samples.

Results

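Bach2 peaks that lie deep inside gene bodies made up 6733 of the 22494 peaks (29.9%) in a chromatin immunoprecipitation (ChIP) library of induced regulatory T (iTreg) cells. A peak was taken when its midpoint lay inside a locus of the expression files and more than 10 kb from both ends of it, and when fewer than 4 other peak midpoints lay in the 25 kb centred on it. No expression value entered this choice. The peaks fell in 2897 loci, called host loci here, out of 9872 loci longer than 20 kb that could hold one and 23700 loci in all. The study combined this 1 ChIP library and its input with 10 RNA libraries of CD4+ T cells taken from lymph nodes and spleen of C57BL/6J mice. All began as sorted naive CD4+CD44-CD25-CD62L+ cells. The naive library came from fresh wild type cells. The Th1, Th2 and Th17 libraries (1 each) came from wild type cells stimulated for 3 days on plate-bound anti-CD3 and anti-CD28. The polarizing cytokine was IL-12 for Th1, IL-4 for Th2 and IL-6 for Th17, each at 20 ng/ml. Th17 cells also had TGF-β1 (2 ng/ml), and every polarized culture had neutralizing antibody (10 μg/ml). Wild type (WT) and Bach2-deficient (Bach2KO) iTreg cells gave 3 libraries each and received the same coating antibodies (10 μg/ml each) with 100 IU/ml IL-2 and 5 ng/ml human TGF-β1 for 3 days. The deleted part of Bach2 is not named in the labels, and neither is the source of each replicate, so p-values between genotypes cover only the spread between these samples. With 1 ChIP library, no peak has a replicate check.

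Bach2 is a basic leucine zipper protein of the Cap'n'collar (CNC) family. It pairs with small Maf proteins and represses genes through sites that extend the AP-1 site TGAGTCA, the sequence bound by Jun and Fos proteins after T cell receptor signals. In T cells it restrains effector differentiation and favours regulatory T cells. Introns hold many of the enhancers of T cell genes, and a peak there is a position of binding in the population, which does not say which gene it acts on.

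The sequences at the summits, the highest points of the peaks, show what most of the strongest gene-body peaks share and which ones lack it. Each run below is the plus strand of mm9, 5′ to 3′, reaching 50 bases to either side of the summit (100 for Atxn1), and capitals mark TGAGTCA or its reverse complement TGACTCA. The first 7 hold such a site. In the runs from Bach1 and Coro2a the capitals are followed by gca, which read on the other strand makes the longer CNC-Maf site.
Bach1, chr16:87713386-87713486: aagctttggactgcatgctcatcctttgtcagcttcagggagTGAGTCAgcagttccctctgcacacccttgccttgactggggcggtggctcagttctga
Akap6, chr12:53884008-53884108: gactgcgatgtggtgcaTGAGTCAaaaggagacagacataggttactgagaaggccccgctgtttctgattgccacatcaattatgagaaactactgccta
Ptk2b, chr14:66876625-66876725: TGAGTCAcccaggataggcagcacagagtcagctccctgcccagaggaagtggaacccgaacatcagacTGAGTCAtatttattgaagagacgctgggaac
Bach2, chr4:32570047-32570147: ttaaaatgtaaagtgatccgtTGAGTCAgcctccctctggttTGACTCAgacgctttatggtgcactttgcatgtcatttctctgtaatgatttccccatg
Asb2, chr12:104579628-104579728: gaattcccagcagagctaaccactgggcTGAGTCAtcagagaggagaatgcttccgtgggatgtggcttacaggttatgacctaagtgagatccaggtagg
Coro2a, chr4:46576864-46576964: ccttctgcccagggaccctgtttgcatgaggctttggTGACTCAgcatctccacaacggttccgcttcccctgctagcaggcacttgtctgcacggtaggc
Atxn1, chr13:45719387-45719587: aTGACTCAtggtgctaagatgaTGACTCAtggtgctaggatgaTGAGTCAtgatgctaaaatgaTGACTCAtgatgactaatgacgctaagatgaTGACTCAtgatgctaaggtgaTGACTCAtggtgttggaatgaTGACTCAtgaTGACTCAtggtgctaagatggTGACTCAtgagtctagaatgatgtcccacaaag
The next 4 hold no AP-1 site although their peaks are among the strongest of the list or lie in genes of T cell identity.
Cd200r1, chr16:44779046-44779146: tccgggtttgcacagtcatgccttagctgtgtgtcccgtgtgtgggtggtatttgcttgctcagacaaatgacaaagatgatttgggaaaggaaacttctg
Pde4d, chr13:110566489-110566589: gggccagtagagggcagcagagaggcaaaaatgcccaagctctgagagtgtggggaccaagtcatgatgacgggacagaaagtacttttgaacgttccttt
Foxp1, chr6:99324612-99324712: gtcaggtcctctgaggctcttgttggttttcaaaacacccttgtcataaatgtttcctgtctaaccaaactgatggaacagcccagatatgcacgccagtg
Prdm1, chr10:44168451-44168551: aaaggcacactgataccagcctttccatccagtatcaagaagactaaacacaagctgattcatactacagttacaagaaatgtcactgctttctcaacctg

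The peak in Bach1, the gene of the other Bach protein, had 418 tags and a score of 2763. The authors' peak caller MACS gives this score as −10 log10 of its p-value, and all peak values here are the authors'. Its summit lies 14.4 kb into the gene on the plus strand, in the first intron, with the site 5 bases from the summit. The strongest peak in Bach2 itself had a score of 438, also lies in the first intron, 64.9 kb from the start, and carries 2 AP-1 sites in the printed window. The Atxn1 window is a run of near-copies of 1 short unit with 9 AP-1 sites, and the whole peak of 822 bases holds 17. Only 11 gene-body peaks had 4 or more sites within 100 bases of the summit, in Atxn1, Tmem108, Hfm1, Scn10a, Ttll7, Jazf1, Fars2, Efr3b, Dopey2, Msra and Kcnj6. At the other end, the Cd200r1 peak had the highest fold enrichment over local background of all gene-body peaks, 214, with no site in the whole peak.

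Over all 6733 gene-body peaks, an AP-1 site on either strand lay within 100 bases of the summit in 2690, or 40.0% (95% exact binomial interval 38.8 to 41.1%, which covers counting error only). Windows of the same length 1 kb away from the summits held one in 3.66%, and windows tiled across the interiors of all loci over 20 kb in 3.27%. Among the 9557 peaks outside every locus and over 1 kb from a locus start the share was 41.8%, and among the 2010 peaks within 1 kb of a locus start it was 22.4%. So gene-body peaks resembled peaks between genes in this measure, while peaks at gene starts held a site less often. The sites sat close to the summits, within 10 bases in 10.3% of gene-body peaks and within 25 bases in 21.3%.

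**Figure D1:**
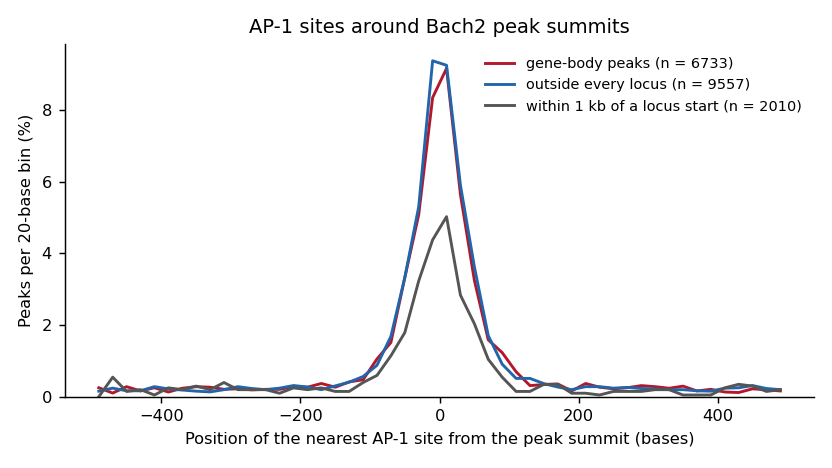
Position of the nearest AP-1 site (TGAGTCA or its reverse complement) relative to the summit, in bins of 20 bases, as a percentage of 6733 gene-body peaks, 9557 peaks outside every locus and 2010 peaks within 1 kb of a locus start. The curves of gene-body peaks and of peaks outside loci lie close together, and the curve of gene starts is lower over the summit.

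The longer CNC-Maf site, TGC directly before TGAGTCA or TGACTCA on either strand, contains the AP-1 site and was present in 631 gene-body peaks (9.37%) against 0.223% of the windows 1 kb away and 0.172% of the tiled windows. Of the gene-body windows with an AP-1 site, 23.5% (interval 21.9 to 25.1%) had this longer form, against 5.27% of the tiled windows with an AP-1 site. The share was 24.4% outside loci and 21.8% at gene starts, and the intervals of all 3 overlap. The full Maf recognition palindrome, TGCTGA and TCAGCA with 1 base between them, was present in 8 gene-body peaks. The composite of an AP-1 and an IRF site, GAAA directly before TGAGTCA on either strand, was present in 21 (0.312%, against 0.0203% of tiled windows). This composite also contains the AP-1 site, so that difference includes the one of the AP-1 site itself. Its share among windows with an AP-1 site was not compared. Sites of other T cell factors were less enriched. The Ets site AGGAAG was present in 34.0% of gene-body peaks against 23.6% of windows 1 kb away, and the Runx site TGTGGT in 22.4% against 16.0%.

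Stronger peaks held the AP-1 site more often. The share was 28.0% in the lowest of 10 equal classes of gene-body peaks by score and 56.7% in the highest, and 2 or more sites were present in 1.63 and 12.6%. In the highest class, 382 of 674 windows held an exact AP-1 site and the others none. A missing match says only that these letters are not in the window.

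Gene-body peaks were modest in size. Their median was 25 tags, a score of 101.2 and a fold enrichment of 13.3, with scores from 50 to 3100, and 57.3% passed a false discovery rate of 1% as the authors gave it. Peaks at gene starts had more tags (median 58) and a lower fold enrichment (9.64). They were also longer, at a median of 899 against 556 bases, and richer in G and C, at 56.0 against 46.8%. In the 25 kb around them 3147 gene-body peaks (46.7%) had no other peak midpoint and 545 had 3, the most that the choice allows. Across the limits of the choice the shares with an AP-1 site had overlapping intervals. The 510 peaks 10 to 12 kb from the nearer end had a median score of 103.1 and 42.2% with an AP-1 site, and the 554 peaks 8 to 10 kb from it 110.3 and 37.5%. The 545 peaks with 3 neighbours had a median score of 116.4 and 33.4% with a site, and the 293 with 4 neighbours 101.1 and 29.7%.

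By the GENCODE annotation of the same build, 95.7% of the summits lay in an intron, 3.16% in an exon and 1.10% in no annotated transcript. First introns held 41.2% of the summits, against 34.3% of positions on an even grid over the same host interiors. Within 1 kb of an annotated transcript start lay 398 summits (5.91%, against 3.23% of the grid), 305 of them at an internal start of the host gene itself. The peak in Elmo1 with the highest score of that gene is one of these. Along the host, read in the direction of transcription, 4 equal stretches held 28.1, 26.5, 23.6 and 21.8% of the peaks. The median distance to the start of the locus was 50.1 kb, the middle 50% of peaks lay 24.4 to 106 kb from it, and the farthest 2212 kb. In 40 cases a peak lay in more than 1 locus, up to 20 for the nested protocadherin gamma genes.

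The density of gene-body peaks followed the level of the gene. Level is given as FPKM, fragments per kilobase of transcript scaled to the library, which allows genes to be compared per length. Loci over 20 kb with a mean under 0.1 FPKM in WT iTreg cells held 3.04 peaks per Mb of interior (95% Poisson interval 2.87 to 3.22, counting error only), where the interior is the locus less 10 kb at each end. The density was 9.08 at 0.1 to 0.5 FPKM, 13.1 at 0.5 to 2, 15.8 at 2 to 10, 21.1 at 10 to 50 and 39.2 (36.4 to 42.3) at 50 FPKM or more. With all lengths together, each step up was larger than the counting intervals. Over all merged interiors the density was 9.79 peaks per Mb, against 6.63 for all peaks in the space outside loci. Within each of the 4 length classes the highest level class was denser than the lowest, 36.0 against 6.13 in loci of 20 to 50 kb and 29.4 against 1.69 in loci over 200 kb. The steps between were not steady in shorter loci. At 0.1 to 0.5, 0.5 to 2 and 2 to 10 FPKM the density was 14.2, 14.4 and 12.9 in loci of 20 to 50 kb. It was 13.0, 15.9 and 15.8 at 50 to 100 kb, 13.1, 14.4 and 17.3 at 100 to 200 kb, and 6.07, 10.8 and 15.5 over 200 kb. At 50 FPKM or more 48.8% of loci hosted a peak, and under 0.1 FPKM 16.7% did. Ordering the loci by the naive library gave 3.75 peaks per Mb in the lowest and 35.3 in the highest class, and the Th1, Th2 and Th17 libraries gave 2.88 and 32.5, 3.20 and 32.7, and 2.81 and 37.1.

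**Figure D2:**
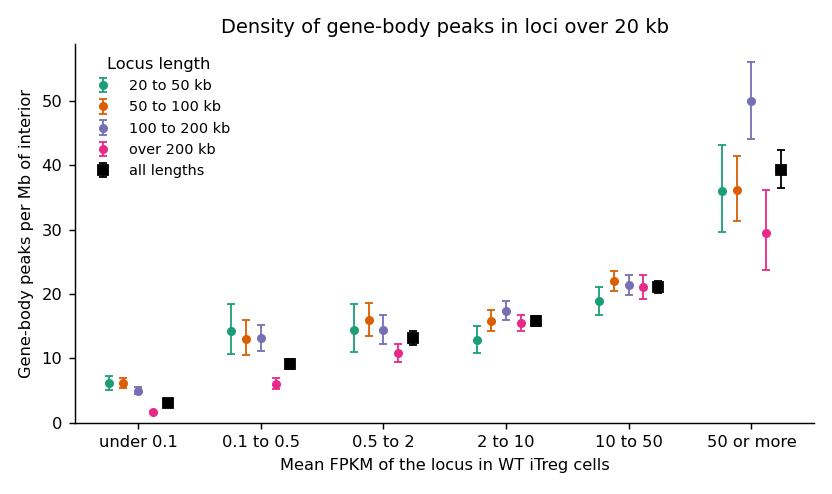
Gene-body peaks per Mb of interior (vertical axis) in classes of mean WT iTreg FPKM (horizontal axis), for 4 classes of locus length in colours and all lengths as black squares. Bars are 95% Poisson intervals of the count. The black squares go from 3.04 to 39.2 peaks per Mb from the lowest to the highest level.

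Host loci were therefore mostly expressed genes, with a median of 5.47 FPKM in WT iTreg cells against 0.356 FPKM for the 6975 long loci with no gene-body peak. Of the hosts, 70.2% reached 0.5 FPKM in WT iTreg cells. Others did not, and 608 hosts stayed under 0.5 FPKM in all 10 RNA libraries and still held 1024 gene-body peaks, 42.4% of them with an AP-1 site (interval 39.3 to 45.5%). Hosts listed at 0 FPKM in every library numbered 38. Akap6, which encodes an anchoring protein of muscle and brain, held the joint highest score, 3100 (413 tags). It was at 0.00314, 0 and 0.00306 FPKM in the WT iTreg libraries and no higher than 0.0841 in any other library. Hecw2, a ubiquitin ligase gene, held 12 gene-body peaks with a highest score of 3082 and stood at 0.0495, 0.0235 and 0.0740 FPKM in WT. Tmprss6, a protease gene of iron control in the liver, had a peak of 428 tags and was listed at 0 FPKM in the 3 WT libraries. Of 48 long genes of the nervous system and muscle, 46 were over 20 kb and 16 of those hosted 40 gene-body peaks, or 0.833 per Mb. The 9 lists of T cell and signalling genes described here had 19.9 to 43.2 per Mb. Length and level differed as well. The nervous system and muscle list had a median interior of 1029 kb and a median of 0.00902 FPKM in WT. The median level of the long genes in the 9 lists was 11.2 to 64.3 FPKM. All loci over 200 kb with a mean under 0.1 FPKM held 1.69 peaks per Mb.

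The number of peaks per host was uneven. There were 1462 hosts with 1 gene-body peak, 916 with 2 to 3, 463 with 4 to 9 and 56 with 10 or more. The median density of a host was 0.0285 peaks per kb of interior. Foxp1 (chr6:98875336-99385339, minus strand), a forkhead factor gene of T cell quiescence, held the most, 25 gene-body peaks at 0.0510 per kb, spread from 21.3 to 422 kb from its start. Their median score was 82.2 and 7 had an AP-1 site. A further 12 peaks of the locus stood in denser groups or near its ends. Lpp, a gene of cell adhesion sites, held 22 gene-body peaks, 13 with an AP-1 site, and Wwox, a very long oxidoreductase gene, held 20 with 4. Cblb, the ubiquitin ligase gene that raises the threshold of T cell activation, was much denser, with 15 gene-body peaks at 0.0958 per kb and a median gap of 8.49 kb. Pde4d, a cyclic AMP phosphodiesterase gene, had 18 over 1302 kb, with a largest gap of 452 kb and a peak of score 2927 at 1122 kb from the start. Bach2 (169 kb long) held 8 gene-body peaks from 12.2 to 157 kb, and 3 more peaks of the locus lie nearer to its start.

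**Figure D3:**
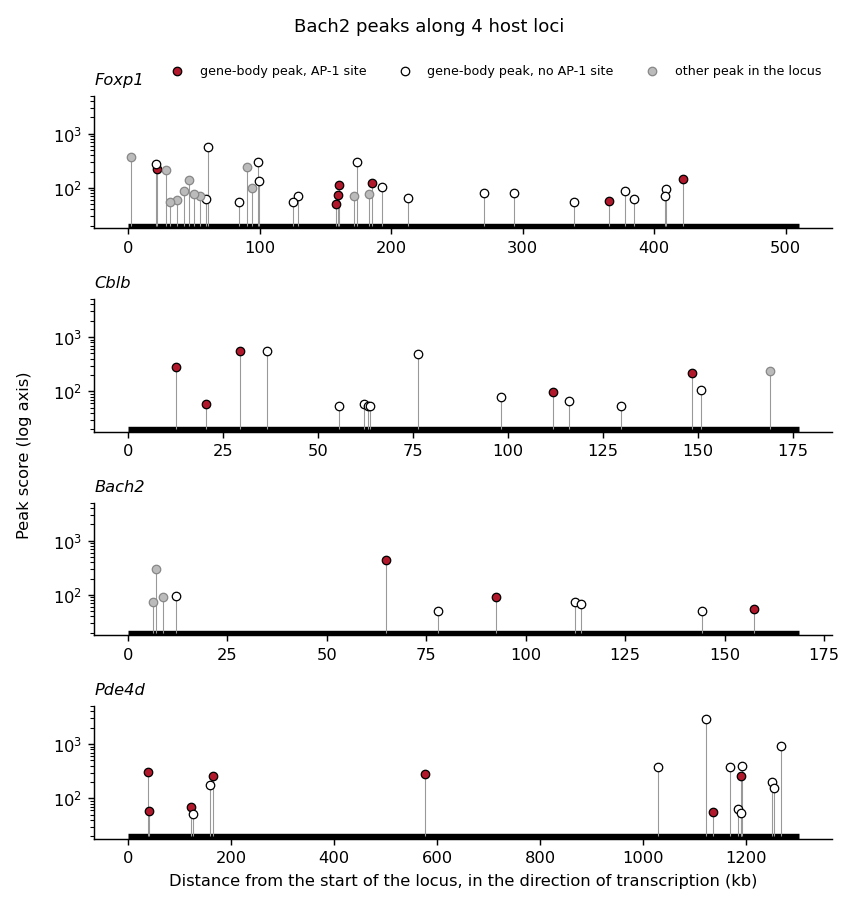
Every Bach2 peak in 4 host loci, placed by distance from the start of the locus in the direction of transcription (kb) and by the authors' score on a log axis; the black bar is the locus. Filled red points are gene-body peaks with an AP-1 site within 100 bases of the summit, open points those without, and grey points are peaks outside the rule. Foxp1 shows 25 gene-body peaks along most of its length and Pde4d a gap of 452 kb.

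What became of the hosts without Bach2 was read from Bach2KO against WT iTreg libraries. The targeted gene came first: Bach2 stood at 17.9, 17.7 and 17.2 FPKM in WT and at 3.91, 3.39 and 4.12 FPKM in Bach2KO. The groups did not overlap, and Bach2 fell by 2.08 on the log2(FPKM + 0.5) scale (SE 0.074, limma, Benjamini-Hochberg adjusted p = 4.4e-06). All differences below are on this scale, which understates the change of genes near 0. Summed FPKM was higher in Bach2KO (545183 to 553892) than in WT libraries (432449.7 to 437849). The 8 T cell markers were at 1 FPKM or more in every library, and summed to 1803 to 1833 FPKM in WT and 1413 to 1591 in Bach2KO. Cd3d (−0.45), Cd3e (−0.53), Cd5 (−0.35) and Lck (−0.55) were called lower, and Cd3g, Cd4, Cd28 and Zap70 were not called. The 6 regulatory T cell markers moved both ways. Foxp3 was at 69.6, 66.7 and 81.1 FPKM in WT and 7.68, 19.7 and 5.81 in Bach2KO (−2.84, limma adjusted p = 0.0012). Ikzf4 was also called lower (−1.47), and Il2ra (1.98) and Tnfrsf18 (1.22) were called higher. Ctla4 was not called and Ikzf2 was not tested. B cell markers summed to 63.0, 11.4 and 35.7 FPKM in WT and 13.2 to 19.9 in Bach2KO, and all 7 were detected in each of these libraries. Dendritic cell and MHC class II markers summed to 218, 26.6 and 108 in WT replicates 1, 2 and 3, the same order by library as the B cell sums. Their median was 158 in Bach2KO. The 6 myeloid markers summed to 3.05 to 4.21 in WT and 0.163 to 0.422 in Bach2KO. Those of CD8 T, NK and γδ T cells summed to 4.58 to 5.53 and 11.3 to 12.3. The myeloid sum in WT was almost all Itgam, an integrin gene that is itself a host, at 3.86, 4.20 and 3.03 FPKM in WT and 0.189, 0.117 and 0.124 in Bach2KO. The other 5 myeloid markers reached at most 0.0978 FPKM in WT and 0.128 in Bach2KO, and Lyz2 was at 0 in 5 of the 6 libraries. The part of these markers in the results was not tested, and in bulk RNA fewer cells of a type and less RNA per cell cannot be told apart.

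Of the 2897 hosts, 2073 passed the filter of a mean of 0.5 FPKM over the 6 iTreg libraries, and 824 were not tested. Limma called 779 hosts higher and 810 lower in Bach2KO at an adjusted p under 0.05, and 484 were not called. Over all 11473 tested loci 74.7% were called, 41.0% higher and 33.6% lower, so that 37.6 and 39.1% of hosts lie near the background with a tilt to the lower side. Over tested loci longer than 20 kb 76.1% were called, 39.5% higher and 36.7% lower, and those with no gene-body peak gave 40.6 and 35.2%. Changes of at least 2-fold were called in 260 of the 2073 hosts upward (background 14.7%) and in 190 (9.17%) downward (background 7.46%). The median difference was −0.02 for hosts and 0.07 for all tested loci.

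Taken over all levels together, hosts with several gene-body peaks were called lower in Bach2KO more often than higher. With 1 peak, 41.3% were called higher and 35.6% lower of 980. With 2 to 3 peaks it was 37.0 and 38.3% of 664, with 4 to 9 peaks 29.5 and 47.6% of 380, and with 10 or more 32.7 and 53.1% of 49. Taking 4 or more together, 128 were called higher and 207 lower of 429 (29.8 and 48.3%), with a median of −0.21 relative to that of all tested loci. The split of calls depends on scaling. Under quantile normalization, which moves the median of all tested loci by −0.17, it was 23.5 and 55.0% for these hosts and 32.3 and 42.7% for all tested loci. With the loci of 300 bp or more scaled to equal sums, which moves it by −0.26, it was 20.0 and 60.1% against 28.5 and 47.4%. Relative to all tested loci the median of these hosts was −0.22 under both. When only loci with at least 0.5 FPKM in WT were counted, so that no locus enters through Bach2KO alone, 28.5 and 49.2% of 421 such hosts were called. Under the same limit it was 39.4 and 34.8% of all tested loci, and 39.2 and 36.2% of those over 20 kb with no gene-body peak.

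**Figure D4:**
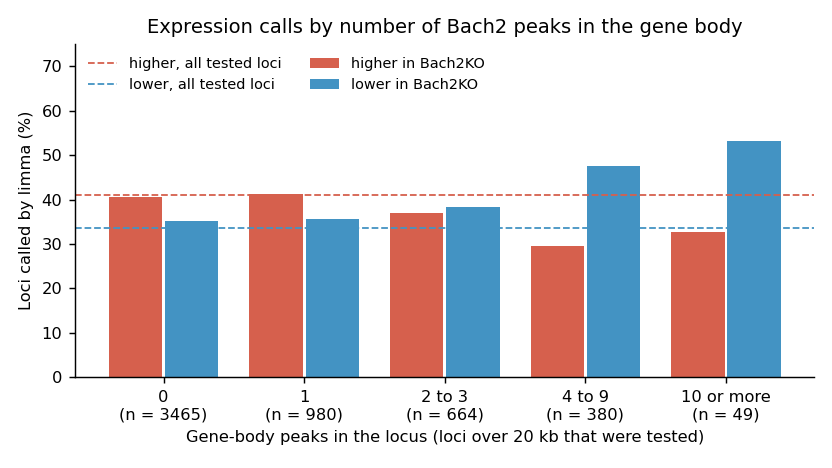
Percentage of tested loci over 20 kb called higher (red) or lower (blue) in Bach2KO iTreg cells by limma, by the number of gene-body peaks in the locus, with the number of loci under each pair of bars. Dashed lines give the share over all 11473 tested loci, 41.0% higher and 33.6% lower. The lower share goes from 35.2% with no peak to 53.1% with 10 or more.

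Length and level move with the number of peaks. The median interior was 39.0 kb for hosts with 1 peak, 64.1 for 2 to 3, 126 for 4 to 9 and 248 for 10 or more, and the median WT level was 11.2, 12.4, 12.2 and 17.7 FPKM. Among loci of 50 to 100 kb 47.6% of 82 hosts with 4 or more peaks, 38.3% of all hosts and 39.1% of loci with no peak were called lower, and among loci of 100 to 200 kb 51.1% of 182, 42.4 and 42.7%. Over 200 kb these shares were 47.2% of 159, 46.4% and 33.3% of only 27 loci with no peak. The 6 tested hosts of 20 to 50 kb with 4 or more peaks were all called higher. By level, the lower share at 0.5 to 2 FPKM in WT was 32.5% of 40 hosts with 4 or more peaks, 21.4% of all hosts and 20.0% of loci with no peak. At 2 to 10 FPKM the order was the other way, with 27.8% of 144, 31.5 and 35.1%. At 10 to 50 FPKM it was 59.1% of 176, 45.2 and 39.2%, and at 50 FPKM or more 82.0% of 61, 66.1 and 52.1%. So hosts with 4 or more peaks had the highest lower share in 3 of the 4 classes of level and in the 3 classes over 50 kb. Under 10 FPKM, however, these hosts were called higher more often than lower. The higher share was 37.5% at 0.5 to 2 FPKM and 39.6% at 2 to 10. Only at higher levels did lower calls outnumber higher ones, with 23.3% higher at 10 to 50 FPKM and 11.5% at 50 FPKM or more. The part of length and level in the tilt was not tested beyond these classes.

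Peaks did not differ clearly in their AP-1 content by the change of the host. The site was present in 40.1% of peaks in hosts called higher (interval 37.9 to 42.4%), 37.8% in hosts called lower (35.8 to 39.9%) and 41.1% in hosts not called (38.3 to 44.0%), and these intervals overlap. Peaks in hosts at 50 FPKM or more in WT had it in 33.8% (30.3 to 37.5%).

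Among the 10 hosts with most gene-body peaks, several moved and 1 was not called. Foxp1 was at 53.2, 50.7 and 51.2 FPKM in WT and 28.2, 31.4 and 27.6 in Bach2KO, with no overlap, and fell by 0.82 (SE 0.059, limma adjusted p = 5.1e-05). Cblb was at 28.6, 27.9 and 29.5 against 28.0, 20.5 and 30.1 FPKM. Its groups overlap and it was not called (−0.14, limma adjusted p = 0.39), though it was called lower at −0.41 with equal sums. Stk39, a kinase gene of ion transport and stress signalling with 14 gene-body peaks, went from 5.01, 4.80 and 5.49 FPKM to 19.6, 23.6 and 19.7. It rose by 1.93 (SE 0.091, limma adjusted p = 1.1e-05) and stood at 53.5 FPKM in the single Th1 library. Atxn1, a nuclear corepressor-binding protein gene, rose from 4.93 ± 0.135 to 9.65 ± 1.11 FPKM (SD, n = 3 each; log2 0.90). Elmo1, which activates Rac in cell migration, rose from 19.2 ± 0.557 to 34.0 ± 1.10 FPKM (0.81). Lpp rose by 0.71. Wwox was called higher at 0.37, a call lost without Bach2KO replicate 1 (0.35) and under both other scalings (0.17 and 0.14), while Akap13, a kinase-anchoring protein gene, fell by 0.18. Pde4d was called lower at −0.44 (limma adjusted p = 0.043), and the call was lost without WT replicate 1 (−0.43), 2 (−0.46) or 3 (−0.43) or without Bach2KO replicate 1 (−0.51). Rora, the retinoid-related factor gene that stood at 30.8 FPKM in the Th17 library, was called higher at 0.42 (limma adjusted p = 0.042) although its WT and Bach2KO libraries overlap. Its call was lost without WT replicate 2 (0.33) or 3 (0.39), without Bach2KO replicate 1 (0.33) or 3 (0.39), and under both other scalings (0.27 and 0.17).

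**Figure D5:**
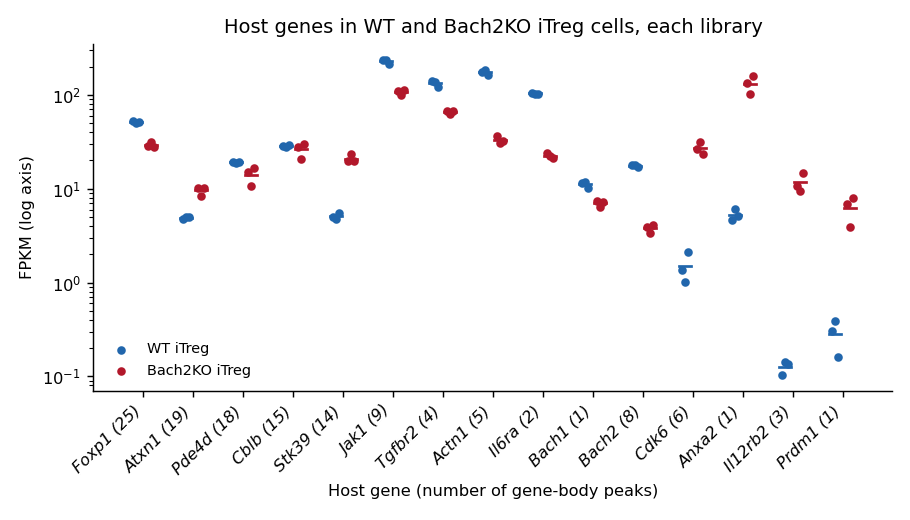
FPKM (log axis) of 15 host genes in each WT (blue) and Bach2KO (red) iTreg library, with the mean as a short line and the number of gene-body peaks in brackets. Foxp1, Pde4d, Jak1, Tgfbr2, Actn1, Il6ra, Bach1 and Bach2 are lower in every Bach2KO library than in any WT library. Atxn1, Stk39, Cdk6, Anxa2, Il12rb2 and Prdm1 are higher in every Bach2KO library, and the groups of Cblb overlap.

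Genes of the factors that share these sites were hosts as well. Of 27 listed AP-1, CNC and small Maf genes, 11 were over 20 kb and 6 of these hosted 15 gene-body peaks. Of the 6 hosts, all tested, 1 was called higher, 4 lower and 1 not, where over all tested loci 41.0% were called higher and 33.6% lower. One of those called lower is Bach2, the targeted gene itself. Bach1 was at 11.6, 11.8 and 10.3 FPKM in WT and 7.31, 6.43 and 7.20 in Bach2KO, and fell by 0.65 (SE 0.076, limma adjusted p = 4.1e-04). Nfe2l2, which encodes the oxidative stress factor NRF2, had 2 gene-body peaks at 0.219 per kb, both with an AP-1 site, and fell by 0.48. Crem, a cyclic AMP response factor gene, had a peak of score 1678.5 with no AP-1 site and rose from 3.90 ± 0.220 to 20.7 ± 6.62 FPKM (SD, n = 3 each). Jdp2, a Jun dimerization protein gene, was at 2.01, 0.924 and 2.72 FPKM in Bach2KO against 0.956 to 1.05 in WT and was not called, but was called higher without Bach2KO replicate 2 (0.91).

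In the T cell receptor and costimulation list, 38 of 45 genes were over 20 kb and 25 of them hosted 105 gene-body peaks, 30.2 per Mb of interior. Of these 25 hosts 8 were called higher, 14 lower and 3 not (4 higher and 17 lower under quantile normalization), with a median of −0.32 against 0.07 over all tested loci, of which 41.0% were called higher and 33.6% lower. The 13 tested long genes of the list with no gene-body peak leaned the same way, with 2 called higher and 6 lower (median −0.16). The long genes of the list had a median of 64.3 FPKM in WT. At 50 FPKM or more, 36.6% of loci over 20 kb with no gene-body peak were called higher and 52.1% lower. The part of level in the list was not tested. Grap2, an adaptor downstream of the receptor, was at 175, 179 and 168 FPKM in WT and 67.8, 76.4 and 66.4 in Bach2KO, and fell by 1.30 (SE 0.064, limma adjusted p = 1.3e-05). Ubash3b, a phosphatase that dampens receptor signals, had 5 gene-body peaks and fell by 1.59. Ppp3ca, the catalytic subunit of calcineurin, had 2 and fell by 0.90. Nfkb1, the NF-κB p105 gene, had 4 gene-body peaks with no AP-1 site within 100 bases of their summits and rose from 81.1 ± 4.81 to 179.8 ± 14.2 FPKM (SD, n = 3 each). The adaptor gene Skap1 (7 peaks, −0.03) and Nfatc2, a calcineurin-dependent factor gene (6 peaks, −0.10), were not called, but were called lower under quantile normalization (−0.30 and −0.27) and with equal sums (−0.30 and −0.37), and Nfatc2 also without Bach2KO replicate 3 (−0.14). Nfatc1 was called higher at 0.21, and was not called under quantile normalization (−0.01) or with equal sums (−0.06).

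The cytokine receptor and signalling list had 18 hosts among 31 long genes, with 50 gene-body peaks (43.0 per Mb), and 16 hosts were tested. Of these 5 were called higher and 8 lower, against 41.0 and 33.6% of all tested loci, with a median of −0.07. The 12 tested long genes of the list with no gene-body peak had 7 higher and 3 lower (median 0.34). Both chains of the IL-6 receptor were hosts: Il6ra was at 105, 103 and 103 FPKM in WT and 23.8, 22.3 and 21.4 in Bach2KO, and fell by 2.18 (SE 0.048, limma adjusted p = 1.2e-06). Il6st, which encodes the shared chain gp130, also fell by 2.18, from 47.8 ± 2.47 to 10.1 ± 0.652 FPKM (SD, n = 3 each). Jak1, the kinase of many cytokine receptors, held 9 gene-body peaks at 0.0965 per kb, 6 with an AP-1 site, and stood at 234, 237 and 212 against 109.6, 99.0 and 112 FPKM. It fell by 1.09 (SE 0.069, limma adjusted p = 3.2e-05). Tgfbr2, the receptor chain that binds TGF-β, had 4 gene-body peaks and fell by 1.01, and its mediator gene Smad3 had 6 and fell by 0.27. Il12rb2, the IL-12 receptor chain gene of Th1 cells, held 3 gene-body peaks. It was at 0.104, 0.141 and 0.135 FPKM in WT and 10.7, 9.48 and 14.8 in Bach2KO, a difference of 4.26, and passed the filter only through Bach2KO. Il2ra, the high-affinity IL-2 receptor chain gene, had 1 gene-body peak near the limit of detection (score 51.20) and rose by 1.98. Stat4 was at 49.3, 29.8 and 55.0 FPKM in Bach2KO against 31.0 to 35.4 in WT and was not called, but was called higher without Bach2KO replicate 2 (0.62).

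Of 65 T cell transcription factor genes 46 were long, and 32 of these hosted 168 gene-body peaks (33.5 per Mb). Of the 29 tested 9 were called higher, 14 lower and 6 not (6 higher and 17 lower under quantile normalization), with a median of −0.10, and Bach2 itself is 1 of the 14. The shares over all tested loci were 41.0 and 33.6%. Runx2, a Runt factor gene, had 11 gene-body peaks and was at 1.58, 1.79 and 1.55 FPKM in WT and 5.51, 5.52 and 5.17 in Bach2KO, and rose by 1.46 (SE 0.071, limma adjusted p = 1.2e-05). Its relative Runx1 had 7 gene-body peaks, the strongest with a score of 2140.9, and fell by 0.18. Bcl11b, a factor gene of T cell commitment, had 5 and fell by 0.62, and Ets1 had 1 and fell by 0.38. Rxra, a retinoid receptor gene, had 2 and rose by 1.78. Prdm1, which encodes the effector repressor Blimp-1, had 1 gene-body peak 10.2 kb from its start, just inside the limit, with a score of 1008.9. It went from 0.301, 0.392 and 0.162 to 6.84, 3.93 and 7.99 FPKM, a difference of 3.06 in a gene that passed the filter only through Bach2KO. Ikzf1 (0.06), Elf1 (0.17) and Zeb1 (−0.04) were not called. Without Bach2KO replicate 2, Ikzf1 (0.11) and Elf1 (0.29) were called higher. Under quantile normalization and with equal sums Ikzf1 (−0.21 in both) and Zeb1 (−0.15 and −0.30) were called lower, so that the direction of Ikzf1 depends on the setting.

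Chromatin regulators and corepressors had 31 hosts among 43 long genes, with 107 gene-body peaks. Of 30 tested 9 were called higher, 16 lower and 5 not (6 higher and 18 lower under quantile normalization), with a median of −0.23, against 41.0% higher and 33.6% lower over all tested loci. The 11 tested long genes of the list with no gene-body peak had 4 higher and 6 lower, at a median of −0.33. Mll3, a histone H3 methyltransferase gene, was at 20.6, 20.1 and 18.7 FPKM in WT and 9.22, 8.03 and 8.86 in Bach2KO, and fell by 1.14. Tet3, which oxidizes methylcytosine, fell by 1.33. The members that rose include Ezh2, the Polycomb methyltransferase gene, from 15.0 ± 1.73 to 71.1 ± 4.38 FPKM (SD, n = 3 each). The maintenance methyltransferase gene Dnmt1 rose by 2.42, but its estimate failed in at least 1 iTreg library by the authors' own status. Hdac4 (7 peaks, 0.20) and Kdm6a (2 peaks, −0.03) were not called. Hdac4 was called higher without Bach2KO replicate 2 (0.31), and Kdm6a lower with equal sums (−0.29).

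Cytoskeleton and small GTPase genes had 41 hosts among 55 long genes, with 21.8 gene-body peaks per Mb. Of 40 tested 13 were called higher, 18 lower and 9 not, with a median of −0.00, beside 41.0% higher and 33.6% lower over all tested loci. Actn1, an actin-crosslinking α-actinin gene with 5 gene-body peaks, was at 175, 184 and 163 FPKM in WT and 36.9, 30.6 and 32.1 in Bach2KO. It fell by 2.38 (SE 0.084, limma adjusted p = 4.3e-06). Evl, an actin-polymerization gene, had 4 and fell by 1.33. Coro2a, a coronin gene, had 2 gene-body peaks, both with the CNC-Maf site, and went from 8.10, 7.78 and 8.66 to 50.7, 58.8 and 51.3 FPKM, and rose by 2.64 (SE 0.073, limma adjusted p = 2.1e-06). Iqgap1, a scaffold gene of the actin cytoskeleton, rose by 0.82. Arhgap10 (7 peaks, 0.17) and Gnaq (6 peaks, 0.12) were not called. Diap1, a formin gene with a peak of score 3010, was called higher at 0.14, was called lower with equal sums (−0.13), and was not called under quantile normalization (−0.08) or without Bach2KO replicate 1 (0.13).

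Kinase, phosphatase and phosphodiesterase genes were hosts most often by share, 43 of 51 long genes with 224 gene-body peaks. Of 42 tested 9 were called higher, 21 lower and 12 not (7 higher and 26 lower under quantile normalization), with a median of −0.18, where all tested loci gave 41.0% higher and 33.6% lower. Of the 8 tested long genes of the list with no gene-body peak 5 were called higher and 3 lower. Prkce, a protein kinase C gene with 11 gene-body peaks of which 1 had an AP-1 site, was at 6.49, 6.72 and 6.47 FPKM in WT and 1.81, 1.96 and 1.62 in Bach2KO. It fell by 1.62 (SE 0.074, limma adjusted p = 1.0e-05). Its relative Prkca also had 11 gene-body peaks and was at 14.4, 12.7 and 15.2 against 14.8, 16.3 and 12.9 FPKM, not called (0.05). The 2 genes carried the same number of peaks, and the difference between their changes was not tested. Ptpn12 (3 peaks) fell by 1.01 and Pde7a (2 peaks) by 0.84, while Ptpn2, a phosphatase of JAK and T cell receptor signals, had 1 and rose by 0.77. Ptk2b, a focal adhesion kinase gene with 8 gene-body peaks, fell by 0.36. Camk2d (12 peaks, 0.15) was not called, but was called higher without Bach2KO replicate 2 (0.22).

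Ubiquitin and survival genes had 19 hosts among 30 long genes, all tested, with 8 called higher, 9 lower and 2 not (median −0.14), near the 41.0 and 33.6% of all tested loci. Bcl2, the survival gene, had 9 gene-body peaks and went from 26.7, 21.7 and 29.9 to 49.2, 53.6 and 45.6 FPKM, and rose by 0.92 (SE 0.13, limma adjusted p = 8.2e-04). Tnfaip8, a relative of death effector domain genes, rose by 1.19. The ubiquitin conjugating enzyme gene Ube2e2 fell by 1.21, the ubiquitin ligase gene Peli1 by 0.88 and the TNF receptor adaptor gene Traf5 by 0.92, while its relative Traf3 (0.17) was called only without Bach2KO replicate 3 (0.25). Adhesion and surface receptor genes had 18 hosts among 34, with 8 of 17 tested called higher and 7 lower (median 0.57), also near these shares. Itga6, the α6 integrin gene, had 5 gene-body peaks at 0.101 per kb and fell from 39.3 ± 1.23 to 12.7 ± 0.918 FPKM (SD, n = 3 each). Cd44, the hyaluronan receptor gene, rose by 1.67. Nt5e, the ectonucleotidase gene of CD73, fell by 1.29. Havcr2, which encodes TIM-3, had 1 gene-body peak of score 428.2 and was at 0.0251, 0 and 0.0122 FPKM in WT and 5.03, 4.92 and 4.66 in Bach2KO, so it also passed the filter only through Bach2KO. Itgb3 was at 28.4, 11.9 and 31.5 FPKM in Bach2KO against 14.4 to 15.1 in WT and was not called, but was called higher without Bach2KO replicate 2 (1.00). Tnfrsf1b was not called at 0.01, but was called lower with equal sums (−0.27).

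The 10 hosts with the highest peak density among those with at least 3 gene-body peaks were 29.4 to 45.1 kb long. This ranking favours short loci, since a few peaks are divided by a short interior. Over all loci the density was 13.6 peaks per Mb at 20 to 50 kb, 15.0 at 50 to 100 kb, 13.4 at 100 to 200 kb and 5.69 over 200 kb. Capza2, an actin-capping protein gene, had 3 at 0.318 per kb and rose from 51.9 ± 1.71 to 93.1 ± 4.31 FPKM (SD, n = 3 each). Polr3g (0.233 per kb, 0.39), N4bp1 (0.166, 0.67), Tmem154 (0.163, 0.42), Tpst2 (0.161, 0.34) and Lcp2 (0.159, 0.54) were called higher too, and so was Tnk2 (0.159), from 6.82 ± 0.560 to 20.1 ± 0.775 FPKM. Smox (0.225, −0.71), Slamf1 (0.213, −0.56) and Rara (0.174, −0.21) were called lower. The call of Polr3g was lost without WT replicate 1 (0.33) or 2 (0.40) and under both other scalings (0.26 and 0.14). That of Slamf1 was lost without WT replicate 1 (−0.53) or 3 (−0.55) or Bach2KO replicate 1 (−0.54), and with the replicate block. That of Rara was lost without WT replicate 1 (−0.20) or 3 (−0.19) or Bach2KO replicate 1 (−0.19) or 3 (−0.18), and with the replicate block. Tmem154 (0.15) and Tpst2 (0.08) were not called with equal sums. Lcp2 encodes SLP-76, the scaffold on which T cell receptor signals assemble, and stood at 83.8, 85.0 and 83.6 FPKM in WT and 127, 124 and 115 in Bach2KO.

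The hosts with the largest changes mostly held few peaks, as hosts did in general. Of the 2073 tested hosts 980 held 1 peak and 429 held 4 or more. They were chosen by this same contrast, so their differences are a description. Among the 10 largest rises, Cdk6, the G1 cyclin-dependent kinase gene, held the most, 6 gene-body peaks of which 4 had an AP-1 site, and went from 1.37, 1.01 and 2.14 to 26.4, 31.5 and 23.7 FPKM (3.82). Anxa2, an annexin gene, had 1 with an AP-1 site and went from 5.25 ± 0.712 to 132 ± 29.9 FPKM (SD, n = 3 each; 4.51). Asb2, a ubiquitin ligase adaptor gene, had the peak printed above with a score of 898.1 and went from 0.369, 0.130 and 0.174 to 14.4, 9.83 and 19.6 FPKM (4.35). The other rises were Fads2 (5.28), Ttc39c (4.54), Egln3 (4.47), Il12rb2 (4.26), Hk2 (4.13), Tpx2 (3.84) and Kif11 (3.76), of which Tpx2 and Kif11 serve the mitotic spindle and each held 1 peak of score under 100. Fads2, Ttc39c, Asb2, Il12rb2 and Hk2 had a WT mean under 0.5 FPKM and passed the filter only through Bach2KO. Among the 10 largest falls were Actn1, above, and Ankrd55, also with 5 gene-body peaks, at 5.82, 6.41 and 6.36 against 0.222, 0.307 and 0.410 FPKM (−3.05). The others, Rnf32 (−3.17), St8sia6 (−2.98), Slc38a6 (−2.94), Scml4 (−2.86), Capn3 (−2.61), Btbd11 (−2.57), Cd101 (−2.54) and Adamts6 (−2.48), held 1 or 2 each.

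The calls of hosts showed no steady order by the score of the strongest gene-body peak. The shares called higher and lower were 37.8 and 37.3% for scores under 100, 35.0 and 38.8% at 100 to 250, 37.2 and 42.3% at 250 to 500, and 41.4 and 39.0% at 500 or more. The 10 strongest peaks had scores from 2763 to 3100. Of their hosts, Akap6, Hecw2 and Tmprss6 were not tested. Cd200r1, an inhibitory receptor gene, had a score of 3036 and was at 8.15, 8.56 and 6.85 FPKM in WT and 8.12, 8.93 and 8.01 in Bach2KO, not called (0.09, limma adjusted p = 0.42). The remaining hosts were Atxn1 (0.90) and Diap1 (0.14), called higher, and Pde4d (−0.44), Fto (−0.18), Ptk2b (−0.36) and Bach1 (−0.65), called lower. The call of Fto was lost without WT replicate 1 or 3 (−0.17 in both cases) and with the replicate block.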

How the data were processed

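FPKM values per locus were made by the authors with TopHat and Cufflinks from unique 50-bp reads on mm9, per the labels' protocols; the sources used here give no versions. Peaks were called by the authors with MACS 1.4.0beta, per the file headers, on 8992019 ChIP and 9999999 input tags (p cutoff 1e-05), aligned with Bowtie according to the submitters' processing notes. Each peak's deposited tag count, score, fold enrichment ratio and FDR in percent are MACS output, per the file headers. Input values beyond these were not used here.

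Peaks were assigned to loci by midpoint, and positions are 1-based. Sequence came from the mm9 genome, intron and exon from GENCODE. Motifs were counted as exact matches on both strands, 100 bases to either side of the summit. Bach2KO and WT iTreg libraries entered limma 3.58.1 (R 4.3.3) on log2(FPKM + 0.5), eBayes with trend, two-sided, Benjamini-Hochberg at 0.05 over 11473 loci with a mean of at least 0.5 FPKM. Single libraries stayed out of the fit. The 72 loci with a failed estimate were kept. Intervals are exact binomial or Poisson at 95%. The fit was tested on simulated data. No count test was run, since only 73.4 to 78.9% of low values gave whole reads (within 0.02).

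The peaks and the 10 gene lists were chosen with earlier results of these data known. Named hosts are Bach2, the 10 with most peaks, the 10 densest with at least 3 peaks, those of the 10 highest scores, the 10 largest rises and falls among called hosts with separate replicates and a higher mean of at least 5 FPKM, up to 4 called and 2 uncalled hosts per list, and T cell genes set by name. The 184 hosts that are predicted genes were not named.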

Additional observations from a re-analysis of the deposited data

How the results depend on the processing

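Direction and threshold were recomputed under other pseudocounts, filters, scalings, peak cutoffs and without each iTreg library. With only peaks at an FDR of at most 1% the choice gave 4058 gene-body peaks, and with a score of at least 100 it gave 3603 in 1921 hosts. Neighbours were recounted among the peaks kept, so some peaks in denser groups entered. Of the 6733 gene-body peaks themselves, 3857 passed the FDR cutoff. A margin of 20 kb left 1922 hosts, 451 of them called higher. The AP-1 share was 45.3% at the FDR cutoff, 46.2% at the score cutoff, 47.5% over whole peaks and 31.0% within 50 bases of the summit, and the CNC-Maf share 10.6, 10.9, 10.3 and 7.71%. Hosts with 4 or more peaks called higher and lower numbered 79 and 108 at the FDR cutoff and 66 and 87 at the score cutoff, since fewer hosts then have 4. Leaving out loci with a failed estimate gave 37.7% of hosts higher and 39.1% lower; this alternative, the forms of the CNC-Maf share and its settings were chosen after seeing the data. Without a filter 836 hosts were called higher and 890 lower. Of 1542 values for 103 named hosts 1480 gave the same call, 38 lost a call, 17 gained one and 7 reversed: Diap1 (−0.13 with equal sums, −0.08 under quantile normalization), Ikzf1 (−0.21 and −0.21), Nfatc1 (−0.06 and −0.01) and Tnfrsf1b (−0.27 with equal sums); the cause was not tested. Of the reversed values, Diap1 and Tnfrsf1b with equal sums and Ikzf1 in both were called lower, while Nfatc1 lost its call in both. Calls were lost with the direction kept for 11 hosts: Diap1, Fto, Il18r1, Pde4d, Polr3g, Rara, Rora, Slamf1, Tmem154, Tpst2 and Wwox. With the replicate block, 729 hosts were called higher and 743 lower, which ended the calls of Fto, Rara and Slamf1 among the named hosts, and same-numbered libraries did not deviate together (correlations −0.0382 to 0.006). Peaks rest on 1 ChIP library, so weak peaks, at a score near 50, are the least certain.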
